A study of Mus musculus with 4 samples.

Results

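R-spondins, the Lgr receptors that bind them and the ubiquitin ligases these receptors control were followed across a mouse colon array series. The 9 genes were *Rspo1*, *Rspo2*, *Rspo3*, *Rspo4*, *Lgr4*, *Lgr5*, *Lgr6*, *Rnf43* and *Znrf3*. They were chosen by name from 27087 gene names on the arrays, and 18 of 41174 gene probes carried 1 of these names. The rule that picks the probes uses no measured value. *Lgr4* had 4 probes, *Rspo1* and *Znrf3* had 1 each, and the other genes had 2 each.

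The series held 4 dual-color arrays in 2 experiments on C57BL/6 mice. In the first experiment, the distal colon of *Myh11CreErt2/Rspo3* fl/fl mice (labelled Rspo3 KO) was compared with that of *Myh11CreErt2/Rspo3*+/+ littermates (labelled Rspo3++, called control here) 2 weeks after tamoxifen. Both groups carried the Cre driver and were given tamoxifen, and the mice were male and 6 to 8 weeks old. The driver is active in smooth muscle and myofibroblasts, so that other cells keep *Rspo3*. Each array held a KO mouse against a control mouse, the KO in Cy5 on the array of pair 1 and in Cy3 on that of pair 2, which gives n = 2 pairs. In the second experiment, epithelial cells of *Axin2CreErt2/Rosa26-tdTomato* mice were sorted 24 h after tamoxifen into tdTomato positive (Axin2+) and tdTomato negative (Axin2-) cells. These mice were also male and 6 to 8 weeks old. In both experiments tamoxifen was injected at 4 mg per 25 g body weight in 200 μl of corn oil. Cells of 3 mice were pooled, and the same 2 pools were hybridised on both arrays with the dyes reversed, which is 1 replicate with no test.

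R-spondins are secreted proteins that strengthen Wnt signaling. They bind Lgr receptors together with the membrane ligases Rnf43 and Znrf3, which otherwise mark Frizzled receptors for removal from the cell surface, and take the ligases off the membrane. *Lgr5*, *Rnf43* and *Znrf3* are themselves Wnt target genes, *Lgr5* marks stem cells at the crypt base, and stromal cells beneath the crypts are a known source of R-spondins.

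The probes of the targeted gene, of *Lgr5* and of the ligases are shown by the leading 30 of their 60 bases, 5′ to 3′. Values below also rest on probes of other members, whose bases are not shown.

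Rspo3 A_51_P428157: agtgtttcttccataaatccatcattagct

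Rspo3 A_52_P337760: cggaactcgatatccagatataaataaatg

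Lgr5 A_51_P218091: aaacaccgcttgtatcatttgttcagctaa

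Lgr5 A_52_P30169: acctctagtgcttatatagaaacttgtgtg

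Rnf43 A_51_P337101: atgggtatttatatctgaaccagacagaaa

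Rnf43 A_52_P78183: tgttgcttctaaatctaatttgtttgcaaa

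Znrf3 A_52_P234039: ctgacctgcatttttctattccttacataa

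The array files place these probes on mm9. For *Rspo3*, on the minus strand, A_51_P428157 was listed at chr10:29172742-29172800 and A_52_P337760 at chr10:29224509-29226228, a span of 1720 bases for a probe of 60. For *Lgr5*, also on the minus strand, A_51_P218091 lay at chr10:114888847-114888906 and A_52_P30169 at chr10:114900686-114900745. For *Rnf43*, on the plus strand, A_51_P337101 lay at chr11:87548944-87549003 and A_52_P78183 at chr11:87543959-87544018. The *Znrf3* probe lay on the minus strand at chr11:5176747-5176806. The A_51 probes of *Lgr5* and *Rnf43* were listed under RefSeq transcripts and the A_52 probes of these genes under Ensembl transcripts, and exon and UTR annotation of mm9 was not used here.

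Whether a probe read any transcript was judged by the scanner software's flag for a signal well above background. In the *Rspo3* KO experiment 8 of the 18 probes had no flagged channel, and in the sorted cells 9 had none. A probe was used in an experiment if at least 1 channel was flagged on both of its arrays, which left 7 probes of 5 genes in the *Rspo3* KO experiment and 8 probes of 5 genes in the Axin2 experiment. The other probes have no level to compare and are described by their flags.

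**Figure D1:**
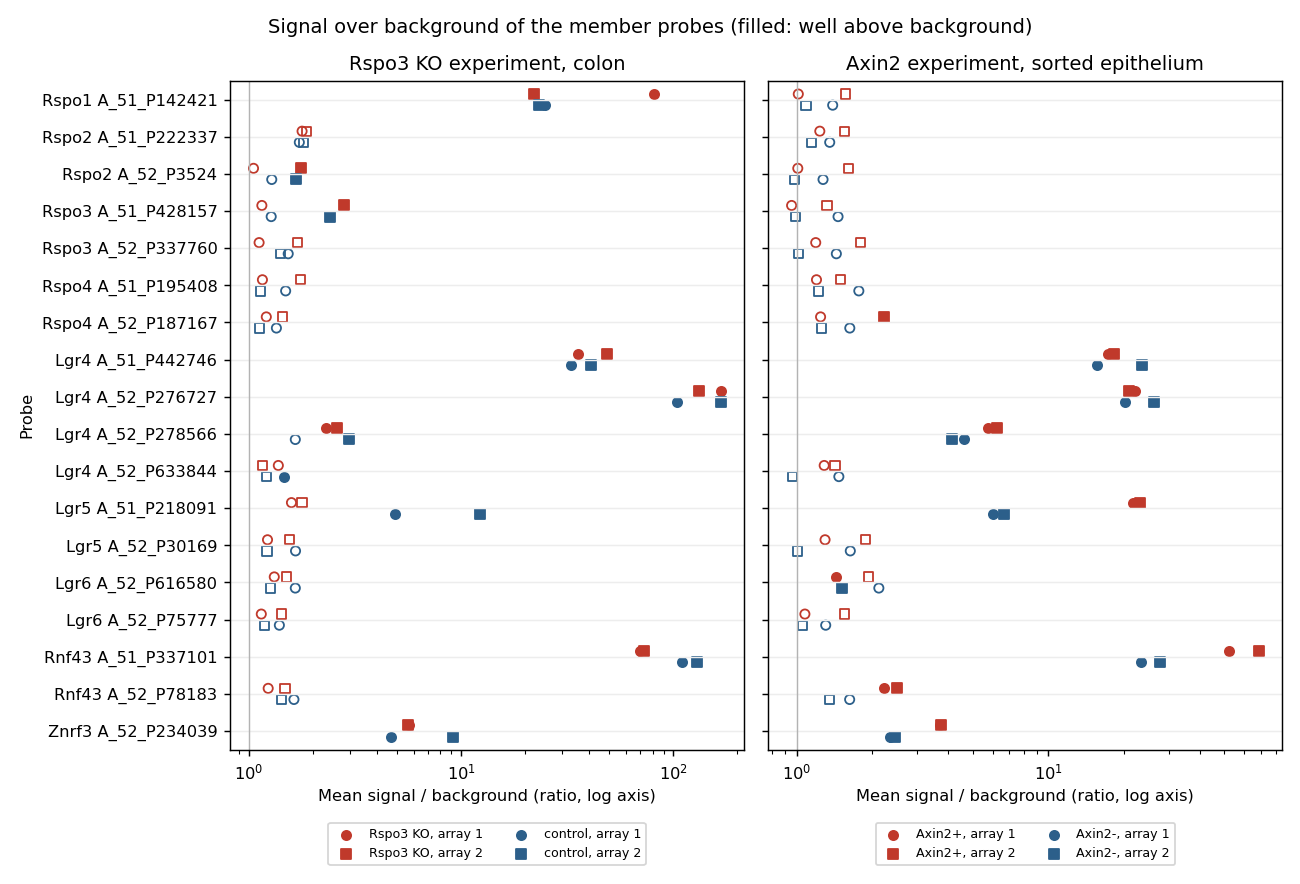
Mean signal divided by local background (log axis) of all 18 probes in each channel, with the *Rspo3* KO experiment on the left and the Axin2 experiment on the right. Circles are array 1, squares array 2, and filled symbols were flagged as well above background, and in the sorted cells only 1 R-spondin channel was filled.

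The labels were checked against cell type markers. In the colon RNA, the epithelial list (*Epcam*, *Cdh1* and others) had 4 of 4 genes well above background in both groups, the other 3 having outlier spots, and smooth muscle and myofibroblast genes had 5 of 5. In the sorted cells, 7 of 7 epithelial genes were well above background and 0 of 4 endothelial genes, and *Myh11*, *Des*, *Col1a1*, *Lum* and *Pdgfra* were at background. Other genes of the same lists were not, since 3 of 6 smooth muscle and myofibroblast genes (*Acta2*, *Actg2* and *Tagln*) and 2 of 6 fibroblast genes (*Col1a2* and *Dcn*) were well above background in both pools. Of 6 immune genes, 3 were well above background in the Axin2+ pool and 4 in the Axin2- pool. The T cell gene *Cd3e* was at log2 levels of 9.21 and 9.13 in Axin2+ and 9.44 and 9.38 in Axin2-. Over all probes the 2 KO pairs differed widely, since 44.7% of 22539 probes changed in the same direction and Pearson's r across probes was 0.02, against 81.7% and 0.92 on the 2 Axin2 arrays. Probes are not independent replicates.

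Among the ligands, *Rspo3*, the targeted gene, was at or close to background throughout. Probe A_51_P428157 was not well above background on array 1 in either channel, and on array 2 both channels were flagged, with a log2 level (background-corrected and normalised, within this experiment) of 7.04 in the KO and 6.87 in the control and the KO was higher by a log2 ratio of 0.17. Probe A_52_P337760 had no flagged channel on the 4 arrays. The loss of *Rspo3* was therefore not seen on these arrays. Where the probes lie relative to the deleted part is not known here, a probe outside that part checks nothing, and KO stands for the channels with that label.

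*Rspo1* was the only R-spondin measured in all channels of the colon RNA. Its log2 level was 12.01 in the KO and 10.43 in the control of pair 1, and 9.75 and 9.74 in pair 2. The KO mouse of pair 1 was high and the other 3 mice lay within 9.74 and 10.43. The mean log2 ratio was 0.80 (SD 1.11, n = 2 pairs; limma adjusted p = 0.9998), with 1.58 in pair 1 and 0.01 in pair 2, so the mean rests on pair 1. In the sorted epithelium the same probe had no flagged channel.

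*Rspo2* and *Rspo4* gave little signal. Both channels of array 2 of the *Rspo3* KO experiment were flagged for *Rspo2* probe A_52_P3524, at log2 levels of 6.47 in the KO and 6.52 in the control, and in no other channel. The other *Rspo2* probe and *Rspo4* probe A_51_P195408 had no flagged channel on any array, and *Rspo4* probe A_52_P187167 had 1, the Axin2+ channel of array 2. Together the 7 R-spondin probes had 8 of 28 channels above background in the colon RNA and 1 of 28 in the sorted epithelium. The 2 experiments differ in tissue and slide and, by the methods but not by the label of the colon RNA (TRIzol), in RNA preparation. The difference in flagged channels was therefore not tested.

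Among the receptors, *Lgr5* was lower in the KO of both pairs. The log2 level of A_51_P218091 was 7.75 and 9.19 in the control mice of pairs 1 and 2, and 6.48 and 6.57 in the KO mice, where the probe was not well above background. The groups did not overlap, and with the KO channels at background the spread between the KO mice was not measured. The share of all probes whose groups do not overlap is not given here. The log2 ratios of KO over control were -1.28 and -2.61, with a mean of -1.94 (SD 0.95, n = 2 pairs; limma's moderated SE 0.33). With the KO channel at background this was at least 3.85-fold lower under the reported background correction, a bound that moves with the correction. It did not pass limma's test over all probes (adjusted p = 0.157), where it ranked 88 of 22539 by p. In these pieces of tissue, fewer *Lgr5*-expressing cells and less *Lgr5* RNA per cell cannot be told apart.

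The size of the *Lgr5* difference and its call depended on the background correction. In the KO channels the signal was 1.59 and 1.78 times the background. The mean was -2.55 with an offset of 16 (limma adjusted p = 0.00194) and -4.44 with the software's own ratios (adjusted p = 0.00819), both past the threshold, and -1.37 with spots of outlying background left in the background fit (adjusted p = 0.9998). The probe entered the test through its control channels alone, so these p-values rest on where the KO background is set. It left the test where both channels had to be well above background. The other *Lgr5* probe, A_52_P30169, had no flagged channel in either experiment and gives no second reading of this gene.

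In the sorted epithelium, *Lgr5* was higher in Axin2+ cells. Its log2 level was 9.81 and 9.64 in the Axin2+ pool on arrays 1 and 2, and 8.31 and 8.08 in the Axin2- pool. The probe was well above background in all 4 channels, so that *Lgr5* RNA was present in the Axin2- pool as well. The log2 ratios were 1.497 and 1.559, a mean of 1.53 or 2.88-fold, and the dye swap moved the ratio by 0.06. Over the other settings, each array by itself included, the value lay between 1.497 and 1.80.

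*Lgr4*, a receptor made broadly along the crypt, had no difference past the test or past 1.5-fold alike on both arrays in either experiment. Probe A_51_P442746 had log2 levels of 10.88 and 10.94 in the KO mice and 10.86 and 10.78 in the controls, and log2 ratios of 0.03 and 0.17. Probe A_52_P276727, at 13.04 and 12.29 in the KO and 12.39 and 12.68 in the control, went opposite ways in the 2 pairs (0.65 and -0.40). So did A_52_P278566 (0.50 and -0.26), whose listed position spans 1387 bases.

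The mean log2 ratios of these 3 *Lgr4* probes in the KO lay between 0.10 and 0.13 (limma adjusted p = 0.9998 for each), and that of A_52_P278566 turned to -0.11 with spots of outlying background in the background fit and was 1.11 with the software's own ratios. In Axin2+ over Axin2- cells the 3 means were -0.09, -0.14 and 0.21, within 1.5-fold and with the same direction on both arrays for each probe but not between probes. The fourth probe, A_52_P633844, was well above background in 1 control channel of the *Rspo3* KO experiment and nowhere else. *Lgr6*, the third receptor, was not well above background in the colon RNA with either probe. In the sorted cells A_52_P616580 was flagged in the Axin2+ channel of array 1 and the Axin2- channel of array 2, both Cy5, with a mean log2 ratio of -0.10.

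Among the ligases, *Rnf43* was lower in the KO and higher in Axin2+ cells. The log2 level of A_51_P337101 was 11.84 and 11.44 in the KO mice of pairs 1 and 2, and 12.47 and 12.17 in the controls. Both KO mice lay below both control mice, and the share of all probes that do so is not given here. The log2 ratios were -0.63 and -0.73, with a mean of -0.68 (SD 0.07, n = 2 pairs; limma's moderated SE 0.21), or 1.60-fold lower, and the pairs differed by 0.10. The difference did not pass limma's test over all probes (adjusted p = 0.774, rank 434 of 22539), with adjusted p between 0.153 and 1 in the other settings. The lowest came from a fit over 4 arrays, whose spread is in part that of the Axin2 dye swap and not between mice.

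In the sorted epithelium the same *Rnf43* probe was at 11.23 and 11.35 in the Axin2+ pool and 10.09 and 10.09 in the Axin2- pool. The log2 ratios were 1.14 and 1.26, a mean of 1.20 or 2.29-fold higher in Axin2+ cells. The other *Rnf43* probe, A_52_P78183, was well above background in the Axin2+ pool on both arrays and in no Axin2- channel, with log2 ratios of 0.33 and 0.37, which means at least 1.28-fold higher. It passed the filter through the pool in which it is higher. In the colon RNA it was at background, so that the lower value of *Rnf43* in the KO rests on a single probe.

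*Znrf3*, the partner ligase, did not move alike in the 2 pairs. Its log2 level was 8.28 in the KO and 8.14 in the control of pair 1, and 7.85 and 8.48 in pair 2. The log2 ratios were 0.14 and -0.63 (mean -0.25, SD 0.55, n = 2 pairs; limma's moderated SE 0.26, limma adjusted p = 0.9998). In Axin2+ over Axin2- cells the ratios were 0.54 and 0.25, with a mean of 0.40 or 1.32-fold higher. That mean was short of 1.5-fold but reached 0.93 with the software's own ratios, the dye swap moving it by 0.29.

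**Figure D2:**
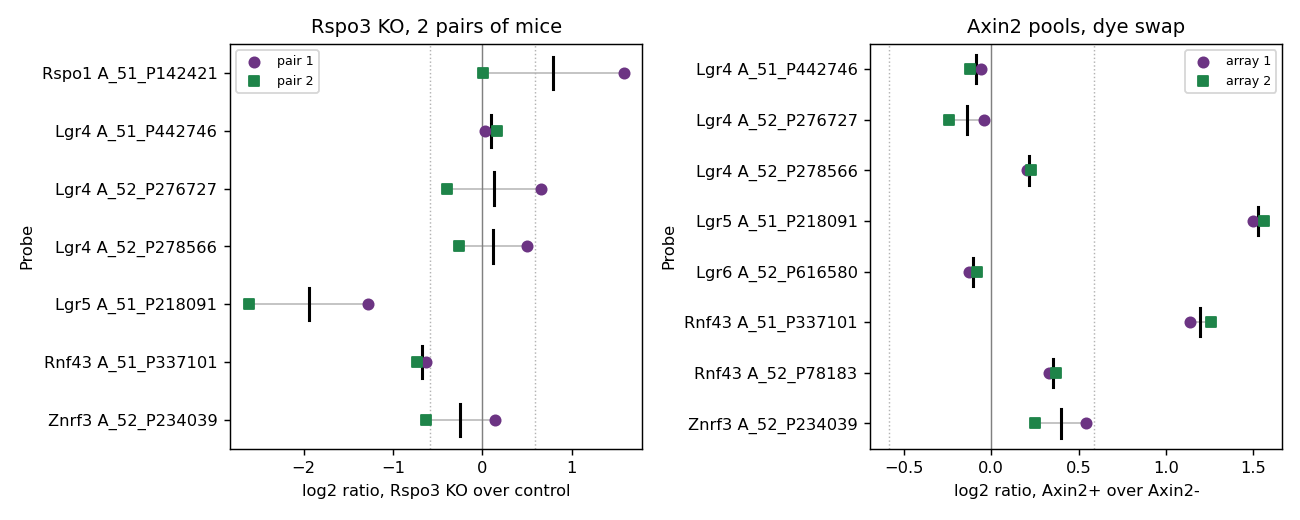
Log2 ratios of the probes used, for Rspo3 KO over control on the left (7 probes, 2 pairs of mice) and Axin2+ over Axin2- on the right (8 probes, 2 arrays of the same pools). Circles are pair or array 1, squares pair or array 2, black bars the mean and dotted lines 1.5-fold. *Lgr5* and *Rnf43* A_51_P337101 lie below 0 in both pairs on the left and above 1 on both arrays on the right.

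Counted over the probes used, 3 of 7 had a mean past 1.5-fold and moved alike in both pairs, *Lgr5* and *Rnf43* lower and *Rspo1* higher, against 3.71% of all probes tested (2.04% for lower). *Lgr5* was kept through its control channels alone, and the *Rspo1* ratio of pair 2 was close to 0. None of the 7 passed limma's adjusted p of 0.05, which 0.169% of all probes passed. An unadjusted limma p under 0.05 was found for 2 of the 7, *Lgr5* and *Rnf43*, beside 997 of all 22539 probes tested. In the Axin2 experiment, 2 of 8 probes were past 1.5-fold on the same rule, *Lgr5* and *Rnf43* A_51_P337101, both higher, against 12.7% of 24113 probes in either direction and 6.99% for higher. The 2 experiments used different mice and share no control.

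The spread over the settings differed between probes. *Rnf43* A_51_P337101, whose signal was at least 69.4 times its background in every channel of the colon RNA, stayed within -0.73 and -0.62 in the KO over all settings tried, each pair by itself included. The range of *Lgr5* on the same footing, -4.44 to -1.28, was the widest of the 7 probes.

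**Figure D3:**
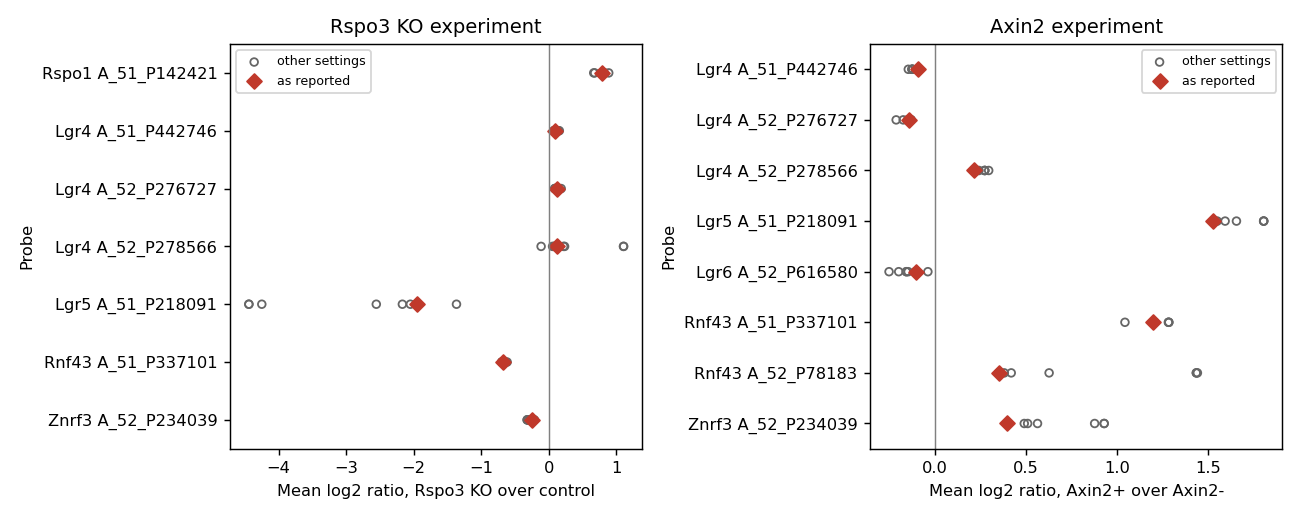
Mean log2 ratio of each probe used under the reported setting (diamonds) and the other settings tried on both arrays (open circles), for Rspo3 KO over control on the left and Axin2+ over Axin2- on the right. *Lgr5* spread from -4.44 to -1.37 on the left, and *Lgr4* A_52_P278566 crossed 0.

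The pathway around the family was read from 2 lists, 15 Wnt target genes other than these members and 12 Wnt receptors. Both lists were chosen with earlier results of these data known, so their counts are descriptive. They use the brightest probe per gene, while the shares beside them are over all probes used. In the KO, 13 Wnt targets were measured and 9 were lower in both pairs, against 22.3% of all probes, while 2 were higher in both, against 22.4%. The median log2 ratio was -0.36, beside 0.0047 over all probes tested, and 5 were past 1.5-fold lower, against 2.04%. None passed limma's adjusted p. *Smoc2*, a secreted matrix protein found in crypt base cells, had log2 ratios of -1.71 and -1.06, *Ephb3*, which helps position cells along the crypt, had -1.61 and -1.01, and *Axin2*, a feedback inhibitor of the pathway, had -0.45 and -0.26. *Cd44* (0.48 and 0.04) and *Myc* (0.72 and 0.24) were higher in both pairs. The list's median stayed between -0.40 and -0.21 with other corrections and scalings, and with median centring 5 of 13 were lower in both pairs, against 8.94% of all probes.

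In Axin2+ over Axin2- cells, 12 Wnt targets were measured, and 10 were higher on both arrays, against 42.5% of all probes. Of the 12, 6 were past 1.5-fold higher, against 6.99% of all probes. Each of these counts includes *Axin2*, on whose activity the cells were sorted, so that its part in them follows from the sort. The median log2 ratio of the 12 was 0.45, beside 0.01 over all probes. *Axin2* had 1.35 and 1.30, *Cd44* 1.31 and 1.51, *Myc* 1.17 and 1.28, and *Nkd1*, another feedback inhibitor, -0.02 and -0.15.

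The Frizzled and Lrp receptors, the proteins on which Rnf43 and Znrf3 act, showed no common direction. In the KO, 3 of 10 moved the same way in both pairs, beside 44.7% of all probes, and the 1 past 1.5-fold was *Lrp5*, a Wnt co-receptor (1.29 and 0.50; limma adjusted p = 0.687). In Axin2+ cells 5 of 12 were higher and 5 lower on both arrays, beside 42.5% and 39.2% of all probes, with *Fzd2* past 1.5-fold higher (0.60 and 0.68) and *Fzd9* lower (-0.86 and -1.11). The median of the receptors in Axin2+ cells, -0.04, turned to 0.01 with median centring.

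**Figure D4:**
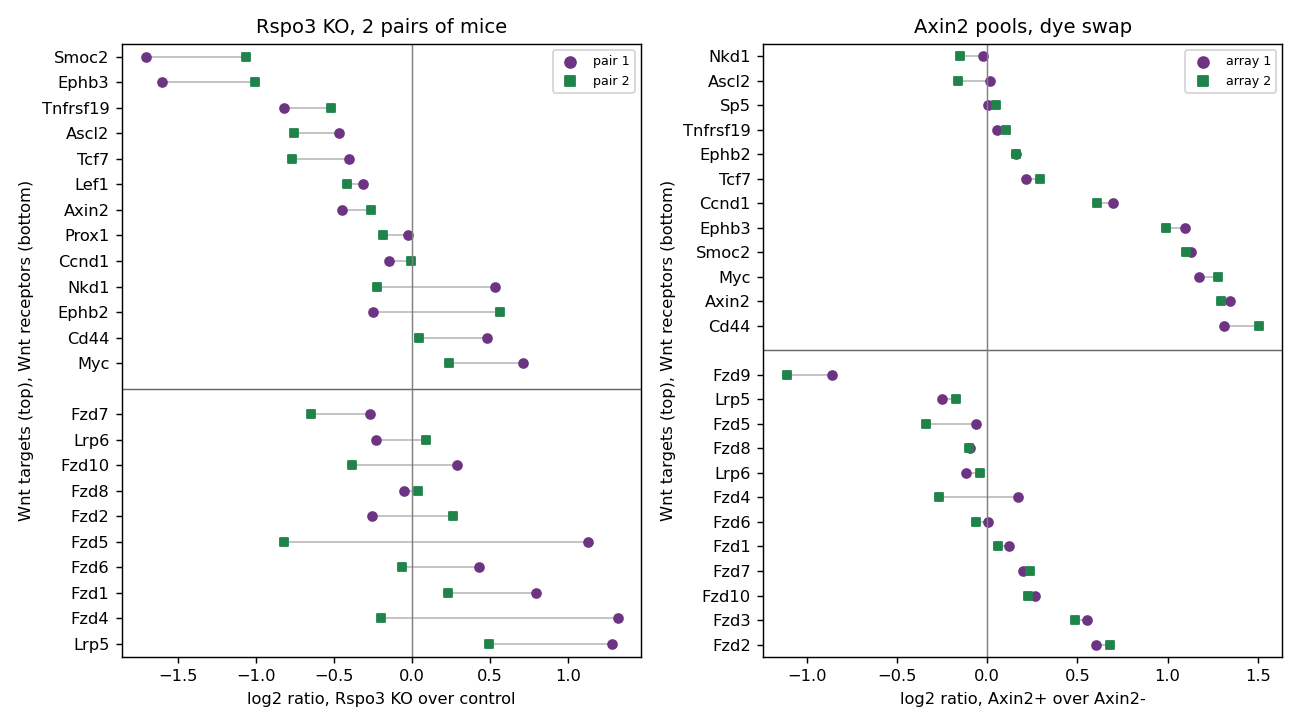
Log2 ratios of the Wnt target genes (upper block) and Wnt receptors (lower block) measured in each experiment, ordered by their mean, for Rspo3 KO over control on the left and Axin2+ over Axin2- on the right. Circles are pair or array 1, squares pair or array 2. *Smoc2* and *Ephb3* lie below -1 in both pairs on the left, and most Frizzled genes lie on both sides of 0 there.

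Markers of other cells were read in the same arrays. In the KO experiment, the B cell gene *Ms4a1* was lower (log2 ratios -2.75 and -2.27; limma adjusted p = 0.0243) and the macrophage gene *Adgre1* was at 0.72 and 0.66 (adjusted p = 0.751). These were the 2 genes past 1.5-fold of 4 measured in a list of 6 immune genes, *Cd79a* was at background, and the summed level of the list was 8903 and 8171 in the KO mice and 9182 and 8147 in the controls. The call of *Ms4a1* was lost with spots of outlying background in the background fit and without a filter on dim probes, where no probe passed. The epithelial list's summed level was 266121 and 277324 in the KO and 259019 and 286292 in the controls. That of smooth muscle and myofibroblasts was 105930 and 110361 against 88479 and 104279. The 5 dividing crypt cell genes had a median log2 ratio of -0.26 and went opposite ways in the 2 pairs for 4 of them, with a summed level of 17453 and 21378 in the KO and 31806 and 15776 in the controls. The 3 surface colonocyte genes measured had a median of -0.29, with 41340 and 20882 against 25346 and 32886. The summed level of fibroblast genes was 116837 and 128113 in the KO and 96438 and 102792 in the controls. That of enteric neurons and glia was 2027 and 2115 against 1927 and 1971, and that of endothelium 1502 and 1298 against 1095 and 1448. The immune, epithelial, dividing, surface and endothelial sums each changed direction between the pairs. Those of smooth muscle, fibroblasts and enteric neurons and glia were higher in the KO of both. The part of these levels in the *Lgr5* and *Rnf43* values was not tested.

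In the sorted cells, 5 of 5 surface colonocyte genes had means past 1.5-fold lower in the Axin2+ pool (*Krt20* -3.01 and -2.77), against 5.75% of all probes for lower, and 5 of 5 genes of dividing crypt cells were higher, against 42.5%, 4 of them past 1.5-fold, against 6.99% (*Mki67* 1.96 and 2.12). Their part in the *Lgr5* and *Rnf43* ratios between the pools was not tested.

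Among the 3 probes most like *Lgr5* over the 4 log2 ratios, of 20037 used in both experiments, were those of *Stra6l* (Euclidean distance 1.38) and *Pcdh17* (1.46). *Stra6l* had ratios of -1.54 and -1.31 in the KO and 1.20 and 1.33 in Axin2+ cells. Those most like *Rnf43* A_51_P337101 were *Mtss1* (0.18), *Pik3r1* (0.19) and *Pola1* (0.22). For *Znrf3* they were *Helz* (0.08), *Crebl2* (0.11) and *Sarnp* (0.11), whose directions in the 2 pairs match it by selection. For *Lgr4* probe A_52_P276727 they were *Mecom* (0.09), *Cd47* (0.11) and *Ppp6c* (0.11).

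Promoter windows from RefSeq (GRCm38.p6, around the start of each gene, 300 bases each) were given for 5 members, *Rspo1*, *Rspo4*, *Lgr4*, *Lgr6* and *Rnf43*, in 6 windows. They were searched on both strands for the letters CTTTGAT and CTTTGAA, a core of sites of the Tcf/Lef factors that act in Wnt signaling. None of the 6 held either, against 8.65% of 32851 windows of all genes and 2 of 17 windows of the Wnt targets. This says only that these letters are not in these windows.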

How the data were processed

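RNA was hybridised on dual-color Agilent arrays. Agilent Feature Extraction was used per the labels. Its deposited output gave signal intensity and background intensity for both dyes of a spot, and a log10 ratio (Cy5 over Cy3) with the software's error score. The authors' series table holds the same log10 ratios (median 0 on each array). The deposited p-value was not used, and the authors' combination of ratio profiles in Resolver could not be repeated. The labels name TRIzol and distal colon for the *Rspo3* KO RNA, and the methods a spin column kit and colon. The 2 arrays of an experiment share a slide.

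From the intensities, log2 ratios were computed with limma (version 3.58.1, R version 4.3.3) by normexp (offset 50) and loess within arrays (span 0.3). Spots with any outlier flag, 124 to 510 per array, were left out, and those with a background outlier also stayed out of the background fit. Ratios were turned to KO or Axin2+ on top, and spots of a probe were averaged. Between 53.1% and 60.3% of gene spots per channel were well above background, and precision is limited by having few arrays. Levels per channel were taken after Aquantile normalisation within an experiment, which does not make the experiments comparable. The KO ratios were tested against 0 (lmFit, eBayes, Benjamini-Hochberg over 22539 probes, 1 residual degree of freedom), with a script tested on simulated data. Pools had no test.

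All 18 probes carried the member's name in the KO files and 15 in the Axin2 files, whose annotation names the other 3 by transcript. Lists used the brightest probe per gene. Genes named are the members, members of the lists and the 3 most like probes, of which 1 is not reported here. Members, lists and the handling of background outliers were chosen with earlier results of these data known. Lists of fibroblasts (median KO log2 ratio 0.30), endothelium (0.10) and enteric neurons and glia (0.19) were also read. Alternatives are named in the closing section.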

Additional observations from a re-analysis of the deposited data

How the results depend on the processing

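No paired analysis was possible because the reported KO test, on ratios within pairs, is already paired, which leaves no replicate number to block on, and the pools have no test. Keeping spots of outlying background in the values was added after seeing the data and changed no call of the 9 genes.

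The number of probes past limma's adjusted p in the KO, 38 as reported, was 0 with spots of outlying background in the background fit (limma, 600 at an unadjusted p under 0.05), 0 without a filter on dim probes (1809), 9 with median centring, 76 with a fit over 4 arrays, 87 with the software's log ratios or the series table, 127 with an offset of 16 and 997 at an unadjusted p. The fit over 4 arrays takes part of its spread from the Axin2 dye swap, which is not a spread between mice. The number past 1.5-fold alike in both pairs, 837, was 428 with spots of outlying background in the fit, 2122 with the software's ratios or the series table, 388 past 1.5-fold in each pair and 216 at 2-fold. With 1 pair left out it was 2061 to 3081, since 1 array needs no match, and limma has no residual then. The Axin2 count, 3071, was 7903 with the software's ratios or the series table, 1538 with median centring, 824 at 2-fold and 3088 to 3375 from 1 array. The cause was not tested.

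Of the 94 recomputed KO values of the 7 probes, 89 kept their direction and side of the threshold, or moved less than the spread. Values from 1 pair or 1 array alone always lie within that spread, so they could only count as unchanged. Among them *Znrf3* turned to 0.14, and *Lgr4* A_52_P276727 and A_52_P278566 turned to -0.40 and -0.26. The series table repeats the software's ratios and was counted beside them. The values of *Lgr5* passed the threshold with an offset of 16, the software's ratios and the series table, and its error-weighted mean was -4.25. *Lgr5* had no value where both channels had to be well above background. *Lgr4* A_52_P278566 reversed to -0.11 with spots of outlying background in the fit. Of 99 Axin2 values, 30 moved by more than the spread of the dye swap, and *Rnf43* A_52_P78183 moved most, from 0.35 to 1.44 with error-weighted ratios. Dim signal limits *Lgr5* in the KO and 10 or more of the 18 probes in each experiment.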
